A study of Mus musculus with 5 samples.

Results

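NF-kB transcription factors are dimers of REL-family subunits that inhibitor proteins hold in the cytoplasm until receptors for cytokines or microbial products activate the IKK kinases. The IKK kinases mark the inhibitor IκBα for destruction, and the freed dimers induce cytokines, adhesion molecules, survival genes and their own inhibitors. In keratinocytes this pathway is best known for wound and inflammatory responses and for survival during exposure to TNF. The genes described here were the subunits Rela, Relb, Nfkb1 and Nfkb2, the inhibitors Nfkbia, Nfkbiz and Tnfaip3, and the targets Birc3, Icam1 and Tnf. They were taken by gene symbol, with every probe set assigned to that symbol alone. Of these 10 genes 9 had such a probe set, 18 probe sets in all, out of 18193 genes and 45101 probe sets. Nfkb1 was not analysed here. Tnf was too dim to be tested, so that 8 genes entered the comparisons.

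The cells were B9, a mouse line from cutaneous squamous cell carcinomas with the genotype HRAS-Q61L, which all cultures carried. They received 1 µM vemurafenib (PLX4032, a BRAF inhibitor that can raise MAPK signalling where RAS is mutant), 1 µM PLX7904 (a BRAF inhibitor of the class called paradox breakers) or DMSO vehicle for 17 h. There were 2 arrays with vemurafenib, 2 with PLX7904 and 1 with DMSO, all from 1 line in culture. The vehicle is given as 0.2% DMSO in the labels, while 2.4 µL of stock in 12 mL of medium is 0.02%.

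Values are MAS5 signals, which combine the probes of a probe set into 1 linear intensity, and the median signal of an array was 44.1 to 51.9. Differences are of log2(signal + 3.34) from a limma fit to all 5 arrays, and genes with a limma p under 0.05 after Benjamini-Hochberg adjustment over all 10852 genes tested are said to have passed. With only 1 DMSO array, its variance was taken from the 4 treated arrays, and both comparisons against DMSO share it. The labels call the arrays biological replicates and say no more, so that a p-value reflects how far these arrays scatter, and their small number limits the precision. The scatter used for a gene rests less on its own values (2 residual degrees of freedom) than on those of genes with similar signal (8.27 prior degrees of freedom). Adding 3.34 makes fold changes of dim genes smaller than those of their signals. In bulk RNA, fewer cells of a type and less RNA per cell cannot be told apart. All 8 keratinocyte markers examined passed the filter on signal, and 1 of them, Dsp, was lower with vemurafenib than with DMSO. The epidermal keratin gene Krt5 had signals of 10583 and 10654 with vemurafenib, 12533 and 12451 with PLX7904 and 12250 with DMSO. Of 9 immune markers 2, Csf1r and Cd68, passed the filter and neither passed the test between vemurafenib and DMSO. The summed signal of these 9 was 331.1 and 359.6 with vemurafenib, 319.8 to 341.1 with PLX7904 and 347.4 with DMSO. Among 6 fibroblast markers 1, Pdgfra, passed the filter and was higher with vemurafenib. The summed signal of the 6 was 380.0 to 398.9 with vemurafenib, 187.2 to 242.8 with PLX7904 and 144.8 with DMSO. Most of it was Pdgfra, at 263.7 and 231.4 with vemurafenib, 137.8 and 132.3 with PLX7904 and 83.3 with DMSO. Of the others, all below the filter, Col1a1, Col1a2, Dcn and Thy1 read higher on both vemurafenib arrays than on DMSO. For Lum the vemurafenib arrays lay to either side of DMSO. The summed signal of 6 endothelial markers, of which 1, Pecam1, passed the filter, was 65.3 and 153.6 with vemurafenib, 108.4 and 212.9 with PLX7904 and 192.8 with DMSO. These markers disagreed. Pecam1, Kdr and Cdh5 read lower on both vemurafenib arrays than on the DMSO array. Vwf read higher on both (15.5 and 25.4 against 10.5), and for Tek and Tie1 the vemurafenib arrays lay to either side of DMSO. That of 5 melanocyte markers, of which Mitf passed the filter, was 112.8 and 160.2 with vemurafenib, 133.4 and 237.6 with PLX7904 and 135.7 with DMSO. None of the markers was listed at 0, and their part in the results was not tested.

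Sequence upstream of the gene starts was available from RefSeq (GRCm38.p6) for 7 of the 10 genes, in 10 windows since Nfkb2 and Tnfaip3 have several starts. The 250 bases before the start are shown for Icam1, the gene with the largest difference from DMSO among the 8 tested. Those of Tnfaip3 and Nfkbia are shown beside it, chosen after their values were seen, because the first missed the threshold narrowly and the second is the best known inhibitor that NF-kB induces. Each runs 5′ to 3′ on the strand of its gene, and capitals mark matches to the motifs searched on both strands. These were the NF-kB consensus, its variants GGACTTTCC and GGAATTTCC, which can overlap it, and the AP-1 site TGAGTCA. Icam1 lies at chr9:21015690-21015939 (plus strand), the first of 2 Tnfaip3 starts at chr10:19015411-19015660 (minus strand) and Nfkbia at chr12:55492648-55492897 (minus strand).
Icam1: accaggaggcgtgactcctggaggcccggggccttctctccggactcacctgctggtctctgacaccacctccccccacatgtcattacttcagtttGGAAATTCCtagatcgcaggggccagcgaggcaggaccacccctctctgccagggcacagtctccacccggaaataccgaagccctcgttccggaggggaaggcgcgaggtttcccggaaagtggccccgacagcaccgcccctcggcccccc
Tnfaip3: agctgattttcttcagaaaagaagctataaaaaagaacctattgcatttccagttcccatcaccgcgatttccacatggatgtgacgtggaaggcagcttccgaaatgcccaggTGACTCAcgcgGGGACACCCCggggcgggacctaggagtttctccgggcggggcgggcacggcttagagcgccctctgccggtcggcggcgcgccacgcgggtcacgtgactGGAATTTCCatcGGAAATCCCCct
Nfkbia: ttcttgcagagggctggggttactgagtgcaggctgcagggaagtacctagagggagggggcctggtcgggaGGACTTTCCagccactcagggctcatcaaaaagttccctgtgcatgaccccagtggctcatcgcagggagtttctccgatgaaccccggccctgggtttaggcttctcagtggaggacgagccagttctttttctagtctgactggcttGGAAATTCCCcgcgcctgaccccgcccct

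The Icam1 stretch held 1 match, to GGAATTTCC on the opposite strand, 153 to 145 bases before the start. The Tnfaip3 stretch shown held a GGAATTTCC match 24 to 16 bases before the start, a consensus match next to it at 12 to 3 bases, 1 further consensus match read on both strands at 125 to 116 bases, and the AP-1 site at 136 to 130 bases. Nfkbia held a consensus match 29 to 20 bases before the start, which overlaps a GGAATTTCC match, and a GGACTTTCC match at 178 to 170 bases. The other Tnfaip3 window held no match. The consensus was found in 3 of the 7 genes, Nfkb2, Nfkbia and Tnfaip3, and the windows of Rela, Birc3 and Tnf held no match to any of the 4 motifs. Among all 32851 windows of 300 bases in the table, 8.46% held the consensus, 5.20% the AP-1 site, 0.344% GGACTTTCC and 0.317% GGAATTTCC. A match is a description of the letters and not evidence of binding.

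None of the 3 subunits measured passed the test in any comparison. Rela, which encodes the transactivating subunit p65, had signals of 2875 and 3001 with vemurafenib, 2756 and 2667 with PLX7904 and 2760 with DMSO. Both vemurafenib arrays lay above the other 3. The log2 difference between vemurafenib and DMSO was 0.09 (SE 0.09, 95% interval -0.11 to 0.29, adjusted p = 0.572), and between PLX7904 and DMSO it was -0.03 (-0.23 to 0.17, adjusted p = 0.987). Vemurafenib and PLX7904 differed by 0.12 (-0.05 to 0.28, adjusted p = 0.356).

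Relb, the partner of p52 in the non-canonical pathway and itself a target of NF-kB, had signals of 241.4 and 232.1 with vemurafenib, 252.6 and 188.9 with PLX7904 and 258.5 with DMSO. The 2 PLX7904 arrays lay to either side of the vemurafenib arrays. The log2 difference from DMSO was -0.13 with vemurafenib (95% interval -0.61 to 0.36, adjusted p = 0.762) and -0.24 with PLX7904 (-0.72 to 0.24, adjusted p = 0.906). Nfkb2, which encodes p100, the precursor of p52, read 219.8 and 238.2 with vemurafenib, 216.8 and 219.7 with PLX7904 and 211.9 with DMSO. Its log2 difference from DMSO was 0.11 with vemurafenib (-0.32 to 0.54, adjusted p = 0.768) and 0.04 with PLX7904 (-0.39 to 0.47, adjusted p = 0.992). A second, dimmer Nfkb2 probe set went the other way, at -0.55 with vemurafenib (SE 0.30, adjusted p = 0.321 over all probe sets). It read 144.0 and 132.7 with vemurafenib, 216.4 and 129.4 with PLX7904 and 203.7 with DMSO.

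**Figure D1:**
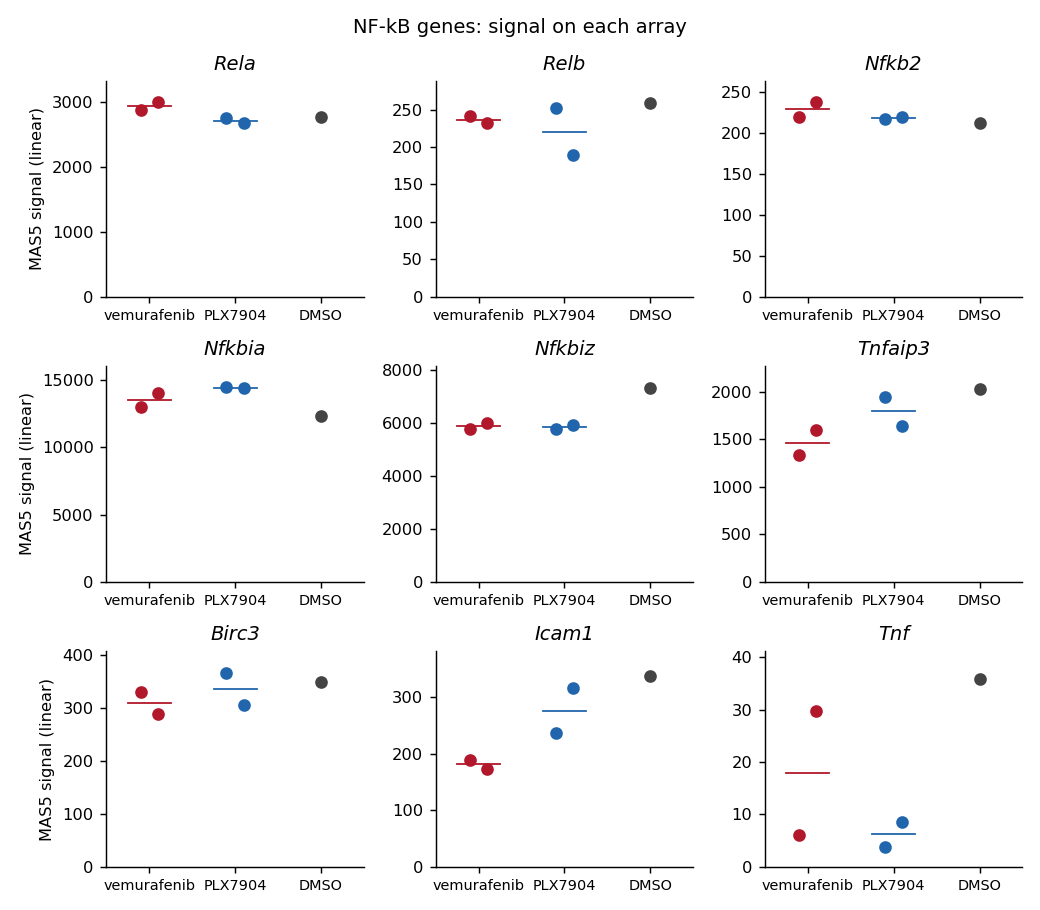
MAS5 signal (linear axis from 0) of the probe set used for each of 9 NF-kB genes on each of the 5 arrays; points are arrays and lines the means of the 2 vemurafenib and 2 PLX7904 arrays. Icam1 reads 173.5 and 190.0 with vemurafenib against 338.8 with DMSO, and all 4 treated arrays lie below DMSO for Nfkbiz.

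Among the inhibitors, Nfkbiz fell with vemurafenib. It encodes IκBζ, a nuclear IκB protein that NF-kB induces and that acts with it on secondary targets such as Lcn2. The signals were 5754 and 5987 with vemurafenib, 5762 and 5913 with PLX7904 and 7311 with DMSO. All 4 treated arrays lay below the DMSO array, and the compounds overlapped. Against DMSO the level was 1.25 times lower with vemurafenib (log2 -0.32, SE 0.08, 95% interval of the log2 difference -0.49 to -0.15, adjusted p = 0.0265), and 1.25 times lower with PLX7904, which did not pass (log2 -0.32, -0.50 to -0.15, adjusted p = 0.342). Both figures share the single DMSO array, and vemurafenib and PLX7904 differed by 0.01 (-0.13 to 0.15, adjusted p = 0.95). Of all genes tested, 24.8% had all 4 treated arrays below the DMSO array. The 2 other Nfkbiz probe sets read -0.22 (SE 0.17) and -0.42 (SE 0.21) with vemurafenib, and -0.21 and -0.36 with PLX7904, and neither passed. At the level of single probe sets the first passed for vemurafenib (adjusted p = 0.0388), as did 7.15% of 19755 probe sets. The vemurafenib call ended without vemurafenib replicate 1 (log2 -0.29, adjusted p = 0.145) or replicate 2 (-0.35, adjusted p = 0.052), when its probe sets were averaged (-0.32, adjusted p = 0.207), with no filter (adjusted p = 0.0638) and without limma's intensity trend (adjusted p = 0.191). With median centring, which raised the median of all genes from -0.05 to 0.10, it read -0.17 (adjusted p = 0.508).

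Tnfaip3 encodes A20, a ubiquitin-editing enzyme that switches NF-kB signalling off, and is a standard NF-kB target. Its signals were 1328 and 1592 with vemurafenib, 1947 and 1634 with PLX7904 and 2026 with DMSO. The vemurafenib arrays were the lowest pair, but vemurafenib replicate 2 lay close to PLX7904 replicate 2. The level was 1.39 times lower with vemurafenib than with DMSO (log2 -0.48, SE 0.14, 95% interval 1.13 to 1.72 times), which missed the threshold (adjusted p = 0.0542). With PLX7904 the difference from DMSO was -0.18 (-0.49 to 0.12, adjusted p = 0.872), and vemurafenib and PLX7904 differed by -0.29 (-0.55 to -0.04, adjusted p = 0.12). A second, much dimmer Tnfaip3 probe set read -0.17 with vemurafenib (SE 0.43, adjusted p = 0.853 over all probe sets in limma) and 0.12 with PLX7904 (SE 0.43). Of 16 alternatives, 10 did not call Tnfaip3 between vemurafenib and DMSO (limma adjusted p up to 0.321) and 6 did. Tnfaip3 passed against DMSO without vemurafenib replicate 2 (log2 -0.61, adjusted p = 0.00416), without PLX7904 replicate 1 (adjusted p = 0.0317) or replicate 2 (adjusted p = 0.0294), and with robust fitting (adjusted p = 0.0472). It also passed under a stricter filter, the 75th percentile (adjusted p = 0.0387), or without probe sets with a suffix x, s or a (adjusted p = 0.0358), and without vemurafenib replicate 2 it passed against PLX7904 (-0.42, adjusted p = 0.0252).

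Nfkbia, which encodes IκBα, the inhibitor that IKK targets first, had 5 probe sets and did not pass in any comparison. The brightest read 13001 and 14036 with vemurafenib, 14475 and 14380 with PLX7904 and 12304 with DMSO, with all 4 treated arrays above the DMSO array. Among all genes 17.7% showed this. The log2 difference from DMSO was 0.13 with vemurafenib (SE 0.07, 95% interval -0.02 to 0.29, adjusted p = 0.263) and 0.23 with PLX7904 (0.07 to 0.39, unadjusted p = 0.00832, adjusted p = 0.509 in limma). The 4 other probe sets lay between 0.01 and 0.04 with vemurafenib and between -0.09 and 0.02 with PLX7904, so that the difference of 0.23 with PLX7904 was seen in 1 of 5 probe sets. The probe set annotated to the RefSeq transcript read 5929 and 6245 with vemurafenib, 5882 and 5465 with PLX7904 and 6031 with DMSO.

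**Figure D2:**
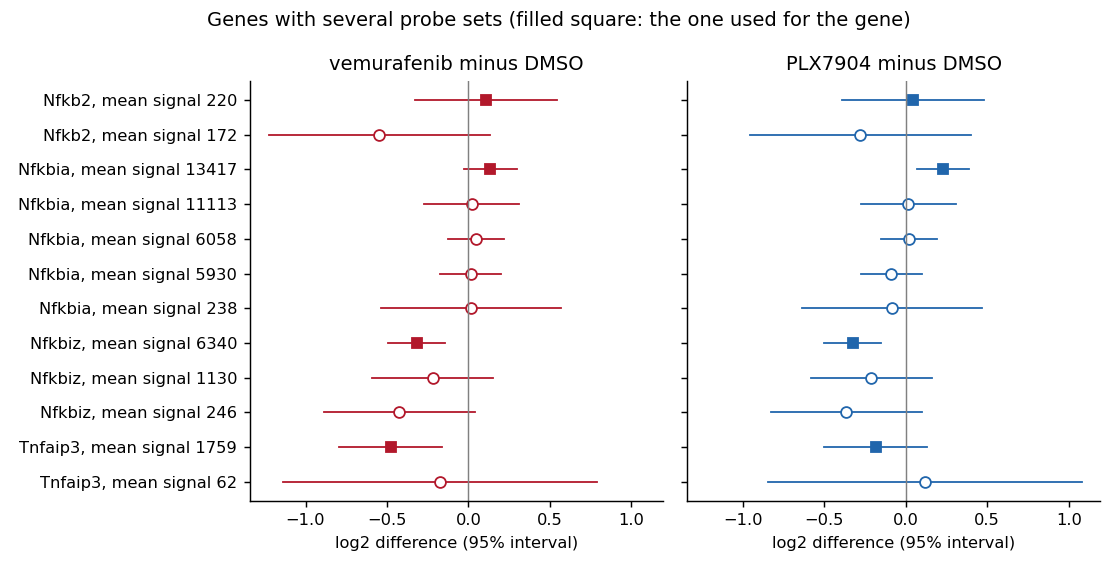
Log2 difference from DMSO with its 95% interval for every tested probe set of the 4 genes with more than 1, with vemurafenib at the left and PLX7904 at the right; squares mark the probe set used for the gene. The 3 Nfkbiz probe sets lie below 0 with both compounds, whereas those of Nfkb2 disagree in sign.

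Icam1, the endothelial and epithelial ligand of leukocyte integrins, had the largest difference of the 8 genes tested and fell with vemurafenib. It read 190.0 and 173.5 with vemurafenib, 236.3 and 316.3 with PLX7904 and 338.8 with DMSO. The 2 vemurafenib arrays lay below the other 3, and the PLX7904 arrays, which differed from each other, lay between. Icam1 was 1.85 times lower with vemurafenib than with DMSO (log2 -0.89, SE 0.22, 95% interval 1.33 to 2.58 times, adjusted p = 0.0272). With PLX7904 it was -0.31 from DMSO (-0.79 to 0.17, adjusted p = 0.854). Vemurafenib and PLX7904 differed by -0.58 (SE 0.18, -0.97 to -0.19), and this test of the difference between the compounds narrowly missed the threshold (adjusted p = 0.0562). It passed without PLX7904 replicate 1 (log2 -0.79, adjusted p = 0.0307), without probe sets with a suffix (adjusted p = 0.04) and with a replicate block (adjusted p = 0.0471). The call against DMSO ended after quantile normalization (-0.77, adjusted p = 0.0517) or cyclic loess (-0.76, adjusted p = 0.0501). It also ended with no filter (adjusted p = 0.0919) and without the intensity trend (adjusted p = 0.136). With probe sets averaged per gene it ended too (adjusted p = 0.0748), though Icam1 has only 1 probe set and stayed at log2 -0.89. In that fit 4.26% of all genes passed.

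Birc3, which encodes the ubiquitin ligase cIAP2 of the TNF receptor complex, read 330.4 and 288.4 with vemurafenib, 365.6 and 305.3 with PLX7904 and 349.0 with DMSO. The groups overlapped except that both vemurafenib arrays lay below the DMSO array. The log2 difference from DMSO was -0.18 with vemurafenib (95% interval -0.58 to 0.23, adjusted p = 0.584) and -0.06 with PLX7904 (-0.46 to 0.34, adjusted p = 0.985). A second Birc3 probe set lay between 8.64 and 23.6 on all arrays and was not tested. Tnf, the cytokine that both induces and follows NF-kB activity, was at 6.09 and 29.7 with vemurafenib, 3.82 and 8.55 with PLX7904 and 35.8 with DMSO. These signals lie below the filter of 47.4, the median of all deposited values, where MAS5 values scatter widely, and the vemurafenib arrays alone spanned most of the range. Fitted without the filter, the log2 difference from DMSO had an interval of -3.33 to 1.03 with vemurafenib and of -4.27 to 0.10 with PLX7904, so that the direction was not settled for either compound.

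**Figure D3:**
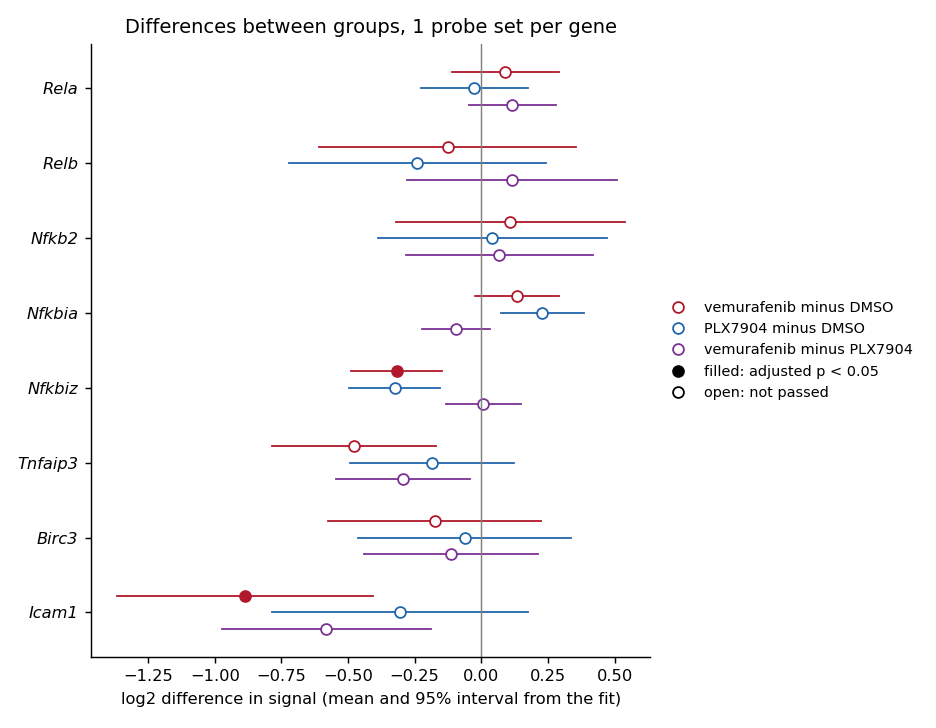
Log2 difference with its 95% interval for the 8 tested genes in the 3 comparisons (vemurafenib minus DMSO, PLX7904 minus DMSO, vemurafenib minus PLX7904); filled points passed at an adjusted p under 0.05. Only Nfkbiz and Icam1 are filled, both for vemurafenib minus DMSO, at -0.32 and -0.89.

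With vemurafenib against DMSO, 2 of the 8 genes fell and 0 rose in limma, where 5.21% of all 10852 genes were lower and 5.43% higher. Their median log2 difference was -0.15, against -0.05 over all genes. For all 8 the vemurafenib arrays lay to 1 side of the single DMSO array, 5 below and 3 above, where 47.7% of all genes lay below and 34.2% above. With PLX7904 5 of the 8 lay below and 2 above, where 35.7% and 30.8% of all genes did. With PLX7904 against DMSO 0 of 8 passed in limma, as did 0% of all genes, and 2 of 8 had an unadjusted p under 0.05 (Nfkbiz and Nfkbia), against 6.65% of all genes. Robust fitting also gave 0 of 8, where 0.0276% of all genes passed. Between vemurafenib and PLX7904 0 of 8 passed in limma, where 13.3% of all genes did, 6.87% being lower and 6.43% higher. Single probe sets of the members also gave 0 calls there, where 9.17% of all probe sets passed. The vemurafenib arrays lay below both PLX7904 arrays for 3 of the 8 genes and above for 2, against 32.2% and 23.8% of all genes. There 2 of 8 (Icam1 and Tnfaip3) had an unadjusted p under 0.05, against 27.3% of all genes. Between the compounds robust fitting gave 0 of 8, where 13.8% of all genes passed. The half-width of a member's 95% interval against DMSO had a median of 0.35 on the log2 scale. Median centring raised the share of higher genes among all calls against DMSO to 77.7%, in place of 51.0%, and between the compounds to 80.0%, in place of 48.4%.

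Other genes of the pathway were taken from 4 lists, of which 81 genes were tested, and 20 of them passed between vemurafenib and DMSO. The list of other NF-kB target genes held 26 tested genes, of which 8 rose and 5 fell with vemurafenib, 13 in all, where 10.6% of all genes passed. Its median log2 difference was 0.08. The 5 lower genes were Lcn2, Saa3, Ccl20, Ccl2 and Csf1. Lcn2, the iron-sequestering lipocalin-2, read 187.5 and 188.6 with vemurafenib, 460.9 and 470.1 with PLX7904 and 570.9 with DMSO. It was 3.00 times lower with vemurafenib than with DMSO (95% interval 2.36 to 3.82 times, adjusted p = 1.96e-04) and 2.45 times lower than with PLX7904 (2.01 to 2.98 times, adjusted p = 1.86e-04). Saa3, an acute-phase serum amyloid, had signals of 75.3 and 110.1 with vemurafenib, 238.7 and 221.0 with PLX7904 and 240.5 with DMSO. It was 2.58 times lower with vemurafenib than with DMSO (1.70 to 3.92 times, adjusted p = 0.0108), and missed the threshold with no filter (adjusted p = 0.0517). Ccl20, the chemokine that draws CCR6-bearing cells, read 366.3 and 435.0 with vemurafenib, 826.9 and 813.5 with PLX7904 and 821.2 with DMSO. The vemurafenib level was 2.05 times lower than DMSO (1.65 to 2.55 times, adjusted p = 0.00172), and PLX7904 differed from DMSO by -0.0018 on the log2 scale (-0.32 to 0.31, adjusted p = 0.998). The monocyte factors Ccl2 and Csf1 were also lower with vemurafenib than with PLX7904, at log2 -1.44 and -1.16, but with its probe sets averaged Csf1 passed in neither comparison. Its log2 difference was then -1.11 for vemurafenib against DMSO (adjusted p = 0.165), -1.06 for PLX7904 against DMSO (adjusted p = 0.876) and -0.05 between the compounds (adjusted p = 0.944).

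Among the 8 higher target genes, Plau, the protease urokinase, read 1705 and 1982 with vemurafenib, 735.8 and 969.9 with PLX7904 and 755.0 with DMSO. It was 2.43 times as high with vemurafenib as with DMSO (95% interval 1.89 to 3.12, adjusted p = 0.00108). Ptgs2, the inducible cyclooxygenase, read 13071 and 12678 with vemurafenib, 8059 and 9522 with PLX7904 and 8285 with DMSO, a rise of 1.55-fold over DMSO (1.34 to 1.80, adjusted p = 0.00258). Cflar, which encodes the caspase-8 inhibitor c-FLIP, rose 1.46-fold (1.26 to 1.71, adjusted p = 0.00724) and Tnfaip2, a gene first found as induced by TNF, 1.43-fold (1.27 to 1.61, adjusted p = 0.00239). Averaging probe sets ended the calls of Cflar (log2 0.63, adjusted p = 0.0714) and Tnfaip2 (0.66, adjusted p = 0.29). The cytokine genes Il23a and Cxcl2 rose too, and against PLX7904 they were 1.86-fold (1.57 to 2.20) and 1.43-fold (1.32 to 1.55) higher.

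**Figure D4:**
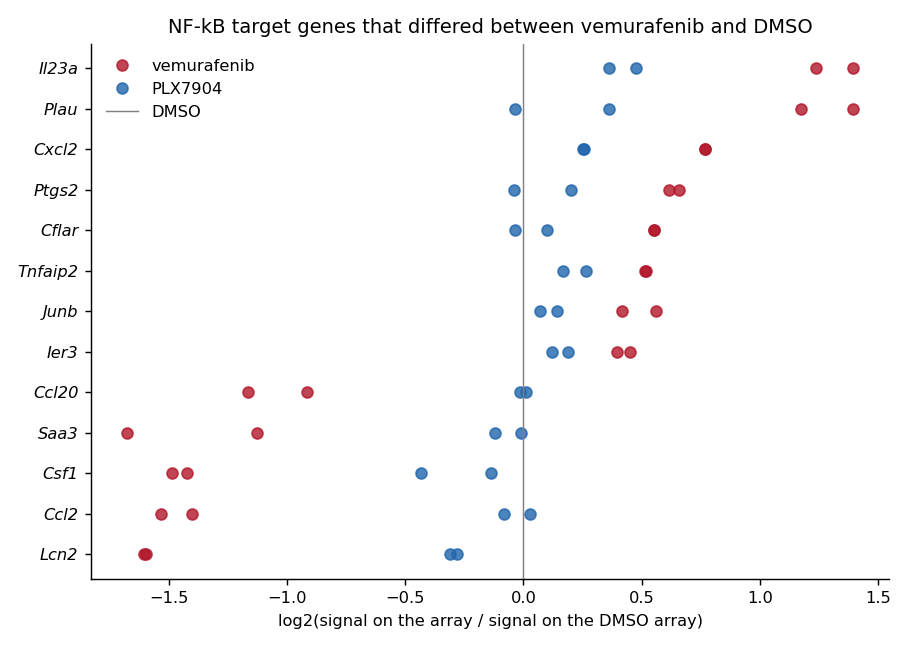
Log2 ratio of the signal on each treated array to that on the DMSO array for the 13 NF-kB target genes that passed between vemurafenib and DMSO; the vertical line is DMSO and no error is drawn. The vemurafenib points lie beyond the PLX7904 points in every row, on the right for 8 genes and on the left for 5.

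Of 16 receptors and ligands, 2 rose and 2 fell with vemurafenib against DMSO, where 5.43% of all genes were higher and 5.21% lower. Il1rn, which encodes the antagonist of the interleukin-1 receptor, read 1027 and 940.4 with vemurafenib, 465.5 and 424.1 with PLX7904 and 365.0 with DMSO. It rose 2.68-fold over DMSO (95% interval 2.17 to 3.31, adjusted p = 1.75e-04) and 2.20-fold over PLX7904 (1.85 to 2.62, adjusted p = 1.86e-04). Tnfrsf12a, the receptor of TWEAK, rose by 0.48 on the log2 scale (0.32 to 0.65, adjusted p = 0.00276). Its signals were 17430 and 16310 with vemurafenib, 14799 and 13838 with PLX7904 and 12054 with DMSO. PLX7904 differed from DMSO by 0.25 (0.09 to 0.41, adjusted p = 0.493 in limma). The compounds differed by 0.24 (0.10 to 0.37, adjusted p = 0.0259 in limma). Il18, a cytokine of the interleukin-1 family, read 45.2 and 67.6 with vemurafenib, 151.1 and 126.5 with PLX7904 and 217.8 with DMSO, and was 3.77 times lower with vemurafenib than with DMSO (2.24 to 6.33 times, adjusted p = 0.00621). Tlr2, a receptor of bacterial lipoproteins, was 1.89 times lower (log2 -0.92, -1.46 to -0.38, adjusted p = 0.0384), a call that ended in 8 of 15 alternatives, including without vemurafenib replicate 2 (log2 -0.86, adjusted p = 0.0587). Il1a, the alarmin interleukin-1α, passed between the compounds and narrowly missed against DMSO (log2 0.44, adjusted p = 0.0521). It read 10704 and 9689 with vemurafenib, 6823 and 5317 with PLX7904 and 7499 with DMSO, and was 1.69-fold higher with vemurafenib than with PLX7904 (1.44 to 1.98, adjusted p = 0.00118).

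Of 25 adaptors and kinases 2 rose with vemurafenib against DMSO and 0 fell. That was 8% of the list, against 10.6% of all genes. Traf1, an adaptor of TNF receptors and a common NF-kB target, read 254.8 and 263.3 with vemurafenib, 159.5 and 142.6 with PLX7904 and 121.8 with DMSO. Its rise of 2.10-fold over DMSO (log2 1.07, 95% interval 0.58 to 1.55, adjusted p = 0.0125) came to log2 0.66 (adjusted p = 0.235) when its probe sets were averaged, and missed the threshold with no filter (adjusted p = 0.055). Bcl10, a scaffold of the CARD-BCL10-MALT1 complex, rose 1.35-fold (1.18 to 1.55, adjusted p = 0.0131), a call that ended without vemurafenib replicate 1 (log2 0.41, adjusted p = 0.0527). Between vemurafenib and PLX7904 5 of the 25 were higher and 0 lower, where 6.43% of all genes were higher. Each of these 5 calls ended without 1 or more of the treated arrays, a fit with 1 array left in that group. The 5 differences stayed above 0 in every alternative. Without vemurafenib replicate 1 the log2 differences of Traf1, Card10, Tradd and Bcl10 were 0.79, 0.37, 0.48 and 0.30. They were 0.77, 0.36, 0.46 and 0.33 in the fit to all 5 arrays. Tirap, an adaptor of Toll-like receptors, read 866.0 and 989.4 with vemurafenib, 650.8 and 695.5 with PLX7904 and 916.0 with DMSO. It was 1.37-fold higher with vemurafenib than with PLX7904 (adjusted p = 0.0183), but vemurafenib differed from DMSO by log2 0.02 (adjusted p = 0.961) and PLX7904 from DMSO by -0.44 (adjusted p = 0.493). The Tirap call ended without vemurafenib replicate 2 (log2 0.36, adjusted p = 0.119) or PLX7904 replicate 1 (0.41, adjusted p = 0.0646). Card10, a scaffold that recruits Bcl10, was 1.28-fold higher with vemurafenib than with PLX7904 (adjusted p = 0.0203), and its call ended without vemurafenib replicate 1 (adjusted p = 0.0913) or 2 (0.0835) or PLX7904 replicate 2 (0.0645). Tradd, an adaptor of the TNF receptor, was 1.37-fold higher (log2 0.46, adjusted p = 0.0192) but differed by log2 0.02 (adjusted p = 0.965) without probe sets with a suffix, and its call also ended without vemurafenib replicate 1 (adjusted p = 0.0557) or 2 (0.076) or PLX7904 replicate 1 (0.0624). The calls of Traf1 between the compounds ended without vemurafenib replicate 1 (adjusted p = 0.0511) or 2 (0.0567) or PLX7904 replicate 2 (0.0791), and that of Bcl10 without vemurafenib replicate 1 (0.114).

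With vemurafenib, 10.6% of all genes passed against DMSO and 13.3% against PLX7904. Of 14 other subunits, inhibitors and deubiquitinases, Zc3h12a alone passed. It encodes Regnase-1, a ribonuclease that degrades cytokine transcripts, and read 385.5 and 369.3 with vemurafenib, 606.3 and 496.7 with PLX7904 and 595.6 with DMSO. It was 1.57 times lower with vemurafenib than with DMSO (log2 -0.65, SE 0.16, adjusted p = 0.0259), but log2 -0.27 (adjusted p = 0.452) when its probe sets were averaged, and quantile normalization (adjusted p = 0.0507), cyclic loess (0.0528), median centring (0.0888) and no filter (0.07) also ended the call. With PLX7904 against DMSO, 0 of the 81 genes of the 4 lists passed in limma, and 9 had an unadjusted p under 0.05. Of all genes, 0% and 6.65% did. With vemurafenib, 5.43% of all genes were higher and 5.21% lower than with DMSO, and 6.43% higher and 6.87% lower than with PLX7904. Of all calls against DMSO, 77.7% were higher with median centring, and 0.396% of all genes passed without the intensity trend. Over all 4 lists 12 genes rose and 8 fell with vemurafenib against DMSO, a split of 16 to 6 with median centring and 0 to 2 without limma's intensity trend, and 16 genes were higher and 8 lower in vemurafenib than in PLX7904 cultures, of which leaving out 1 treated array kept 18 to 19 of 24.

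**Figure D5:**
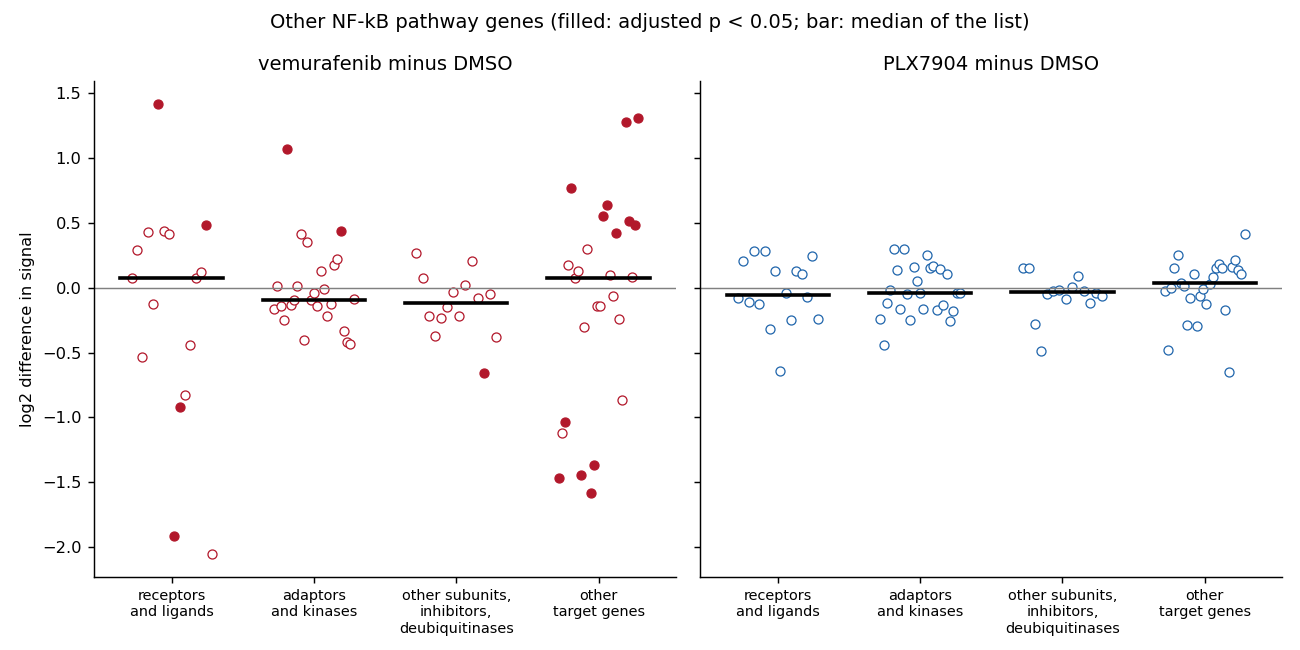
Log2 difference from DMSO of each tested gene of 4 NF-kB pathway lists, with vemurafenib at the left and PLX7904 at the right; filled points passed at an adjusted p under 0.05 and bars are list medians. With vemurafenib 13 of 26 other target genes are filled, 8 above and 5 below 0, and with PLX7904 no point is filled.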

How the data were processed

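Per the labels, biotin-labelled RNA of each culture was hybridised to 1 Affymetrix array. The deposited intensity of each probe set was made by the authors with MAS5, per the submitters' processing notes; its version and settings are not given in the sources used here, and no detection calls were used. Genes were named from the platform annotation, using probe sets with 1 symbol, and for a gene the probe set with the highest mean of the 3 group means. The log2 of signal plus 3.34 (the 10th percentile of all values) was fitted by limma 3.58.1 in R 4.3.3 (3 group means, eBayes with intensity trend, 2 residual and 8.27 prior degrees of freedom, two-sided), keeping genes whose mean signal reached 47.4. Every probe set was also tested on its own, over 19755 probe sets. The fit was also run on data simulated from its own variance model with equal spread in all groups. Such data cannot test the intensity trend or the spread assumed for the lone DMSO array.

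The members and the pathway lists were chosen with earlier results of these data known, so that their counts are descriptions. Named were all members and, for each list and comparison, called genes with the largest changes in either direction (up to 4 a side, 6 for targets). The text gives some of these, and the rule did not fix which. Alternatives covered the pseudocount, filter, normalization, variance model, choice of probe sets, a replicate block and leaving out arrays. Replicate numbers 1 and 2 are shared by vemurafenib and PLX7904, but same-numbered arrays did not deviate together (r = -0.0071 across genes, which are not independent). The plots used Python 3.11.15 with matplotlib.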

Additional observations from a re-analysis of the deposited data

How the results depend on the processing

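With vemurafenib against DMSO, the share of all genes that passed was 10.6% in the fit reported. It was 3.61% without the filter on signal, 0.396% without the intensity trend and 4.26% with the mean of all probe sets. After quantile normalization it was 9.23%, after cyclic loess 9.49% and with median centring 9.39%. The count of NF-kB members that passed was 2 in the fit reported. The count was 0 without the filter on signal, 0 without the intensity trend and 0 with the mean of all probe sets, 1 after quantile normalization, 1 after cyclic loess and 1 with median centring, and 1 to 3 when each treated array was left out in turn. All alternatives kept Icam1 (log2 -0.96 to -0.74) and Nfkbiz (-0.39 to -0.17) below 0, with 10 of 15 keeping the call of Icam1 (adjusted p 0.00825 to 0.136) and 10 of 16 that of Nfkbiz (0.00985 to 0.508), and Tnfaip3 stayed between -0.61 and -0.33 (called in 6 of 16, adjusted p 0.00416 to 0.321). Between vemurafenib and PLX7904, where 0 members passed, the count was 1 with a replicate block, where 14.6% of all genes passed. It was 1 without probe sets with a suffix, where 14.1% of all genes passed, each time Icam1. Over all alternatives Icam1 stayed between log2 -0.79 and -0.37 there, and Tnfaip3 between -0.42 and -0.15. With PLX7904 against DMSO the count was 0 under each alternative run, for members and lists. The 20 list genes that passed against DMSO became 2 without the intensity trend, where 0.396% of all genes passed. The 24 between the compounds became 2, where 0.323% of all genes passed. Without the DMSO array all 24 calls between the compounds were kept, where 13.4% of all genes passed. With the replicate block 2 members and 19 list genes passed against DMSO, where 11.2% of all genes passed. Between the compounds 24 list genes passed with the block, where 14.6% of all genes passed. Icam1 between the compounds was the only member whose call the block changed. Signal limits Tnf, which lay under the filter on every array, and the dimmer probe sets of Birc3. The cause of these changes was not tested.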
